A study of Arabidopsis thaliana with 24 samples.

Results

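Transcripts of 27 Arabidopsis Aux/IAA repressor genes (numbered between IAA1 and IAA34, with IAA15 and IAA32 not analysed here) and of 8 GH3 acyl-amido synthetase genes (GH3.1 to GH3.6, GH3.17 and DFL2) were followed in 24 RNA-seq libraries of whole seedlings. These 35 of the 32833 loci in the count tables were taken by family name, with no threshold on a measured value, although the families were chosen with earlier results of these data known. The libraries form 8 groups of 3: agb1 seedlings with NAE 18:3 at 40 µM, agb1 with DMSO, WT with NAE 18:3 at 40 µM and WT with DMSO, each after 1 h and after 3 h. NAE 18:3 is N-linolenoylethanolamine, a fatty acid amide of the N-acylethanolamine class, and the DMSO groups received 0.2% DMSO. All plants were of the Col-0 ecotype, 4 days old, grown in shaken liquid medium with 1% sucrose at 21 °C, and each library came from a pool of seedlings. The agb1 plants carry a mutation, of an allele not named in the labels, in AGB1 (AT4G34460), the gene for the Gβ protein of the heterotrimeric G protein complex. Nothing in the labels says whether replicates were separate cultures, so the p-values measure the spread between these samples, which may be technical.

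Auxin works by removing repressors. Aux/IAA proteins bind auxin response factors and hold their target genes silent, and auxin acts as a glue between an Aux/IAA degron and a TIR1/AFB receptor, which marks the repressor for destruction. Many Aux/IAA genes and the auxin-linked GH3 genes are themselves among the targets released in this way: the new repressors restore silence, and GH3 enzymes join auxin to amino acids and so lower the free hormone.

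Library totals ran between 18.0 and 61.9 M counts at 1 h and between 20.0 and 51.9 M at 3 h. The genotypes overlapped in depth at 1 h. At 3 h every agb1 library was deeper than every WT library. Totals there were at least 35.98 M in agb1 and at most 25.8 M in WT. The part of depth in the genotype values of genes with few counts was not tested. Levels are counts per 1 M library counts (CPM) on the TMM scale, a scaling that corrects for library composition. A gene is called, and said to rise or fall, when its Benjamini-Hochberg adjusted p in edgeR's quasi-likelihood test over all tested loci was under 0.05, and changes are log2 fold changes with a standard error (SE). AGB1 transcript, as the check of the genotype label, stood at 44.3 ± 5.5 CPM in agb1 with NAE and 56.7 ± 1.96 CPM in WT with NAE at 1 h, and at 36.1 ± 1.94 CPM in agb1 and 112 ± 9.63 CPM in WT with NAE at 3 h (SD, n = 3 each). With DMSO it stood at 44.5 ± 4.52 CPM in agb1 and 50.1 ± 2.35 CPM in WT at 1 h, and at 28.2 ± 4.94 CPM in agb1 and 51.7 ± 0.703 CPM in WT at 3 h. The agb1 minus WT difference of AGB1 was called as lower with NAE at 1 h (-0.36) and with both treatments at 3 h (-1.63 with NAE and -0.88 with DMSO), and was not called with DMSO at 1 h (-0.16, edgeR adjusted p = 0.245). The transcript was present in every agb1 library, so its level at 1 h is a weak check of the label. Markers fitted the whole-seedling label: 4 shoot markers summed to between 10600 and 23000 CPM, 8 root markers to between 74.3 and 130 CPM, and 7 seed storage markers to between 0.322 and 2.72 CPM. Ribosomal RNA loci took 5.29% of the counts in replicate 2 of WT with DMSO at 1 h, and between 0.0192% and 0.257% in every other library. The counts of called members did not move when organelle and ribosomal RNA loci were left out, except that the change of the WT effect with time lost 1 call, with 22 in place of 23. Replicates differed unevenly, by chi-square per degree of freedom, a measure of spread beyond counting noise that also grows with depth. At 3 h it was 47.4 to 83.9 in agb1 with DMSO and 8.56 to 28.2 in the other groups. Pairs with WT with DMSO replicate 2 at 1 h had 182 and 166. The fits used a single estimate of spread per gene for all groups of a time. In whole seedlings, fewer cells of a type and less RNA per cell cannot be told apart.

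The upstream sequence of some of the members is shown first, because the families are known for auxin response elements, the letters TGTCTC and TGTCGG that auxin response factors bind. Each line below is the window of 250 bases ending just before the annotated transcript start in the RefSeq annotation of TAIR10.1, written 5′ to 3′ on the strand of the gene, with matches to either motif on either strand in capitals (GAGACA and CCGACA are the same motifs read on the other strand). IAA2 is included as a strongly raised gene with neither word in its window. The windows of GH3.1 and GH3.6, not printed here, also held neither word.
GH3.3 (chr2:9866563-9866812, minus strand): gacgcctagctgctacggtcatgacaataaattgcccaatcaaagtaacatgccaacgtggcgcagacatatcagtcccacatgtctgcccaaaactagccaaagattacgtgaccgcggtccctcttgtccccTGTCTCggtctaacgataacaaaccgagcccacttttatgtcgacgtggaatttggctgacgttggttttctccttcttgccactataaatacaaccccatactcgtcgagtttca
GH3.2 (chr4:17579368-17579617, plus strand): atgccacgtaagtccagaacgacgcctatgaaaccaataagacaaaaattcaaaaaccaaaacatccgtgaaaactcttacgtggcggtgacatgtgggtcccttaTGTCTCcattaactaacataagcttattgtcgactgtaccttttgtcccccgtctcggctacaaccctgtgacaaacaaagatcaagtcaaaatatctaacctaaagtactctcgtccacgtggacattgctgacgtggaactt
GH3.5 (chr4:13653329-13653578, plus strand): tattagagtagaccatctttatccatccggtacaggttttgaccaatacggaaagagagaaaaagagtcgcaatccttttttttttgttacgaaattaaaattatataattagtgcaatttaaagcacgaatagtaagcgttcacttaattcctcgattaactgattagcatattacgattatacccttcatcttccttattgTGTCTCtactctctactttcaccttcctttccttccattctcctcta
IAA5 (chr1:5366498-5366747, minus strand): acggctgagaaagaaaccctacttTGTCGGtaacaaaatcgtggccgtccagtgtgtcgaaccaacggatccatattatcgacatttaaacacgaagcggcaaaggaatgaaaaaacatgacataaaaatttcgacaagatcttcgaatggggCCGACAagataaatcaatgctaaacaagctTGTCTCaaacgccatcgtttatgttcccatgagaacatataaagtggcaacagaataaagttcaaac
IAA2 (chr3:8182096-8182345, minus strand): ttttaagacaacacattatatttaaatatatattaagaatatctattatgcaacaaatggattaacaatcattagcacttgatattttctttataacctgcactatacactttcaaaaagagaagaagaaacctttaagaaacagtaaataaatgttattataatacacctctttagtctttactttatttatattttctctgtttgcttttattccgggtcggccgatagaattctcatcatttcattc
GH3.3, GH3.2 and GH3.5 each held a single TGTCTC, and IAA5 held 1 TGTCTC and 2 TGTCGG. Both words begin with TGTC, no position can match both on the same strand, and each was counted on its own. Among all 35 members, 11 windows held TGTCTC (31.4%) and 6 held TGTCGG (17.1%), against 10.9% and 4.16% of 27431 protein-coding promoters of the same length. A match is a string of letters, not a shown binding site, and a window without one says nothing of sites further away.

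At 1 h, the GH3 genes were the more responsive of the 2 families. In agb1, GH3.2, GH3.3 and GH3.5 rose and the other 4 tested GH3 genes were not called. In WT, 6 of 7 tested GH3 genes rose, namely GH3.2, GH3.3, GH3.5, GH3.6, GH3.17 and DFL2, and none fell. The Aux/IAA family split: IAA1, IAA2, IAA16 and IAA30 rose and IAA28 fell in both genotypes, while IAA4 and IAA27 also fell in WT. Over both families, 8 of 33 tested members were called in agb1 (24.2%), against 13.8% of all tested loci there, and 13 of 33 in WT (39.4%), against 20.5% of all loci. Most of this excess lay with the GH3 genes, called for 42.9% in agb1 and 85.7% in WT. The Aux/IAA shares were nearer to those of all loci, at 5 of 26 in agb1 (19.2%) and 7 of 26 in WT (26.9%). By direction, 7 members rose and 1 fell in agb1, where 8.89% of all loci rose and 4.92% fell, and 10 rose and 3 fell in WT, where 12.4% rose and 8.02% fell. The median log2 change of the GH3 genes was 0.27 in agb1 and 0.72 in WT, and that of the Aux/IAA genes was 0.10 in agb1 and 0.09 in WT, with all tested loci at 0.00 in agb1 and -0.02 in WT.

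GH3.2 (AT4G37390), an enzyme that conjugates indole-3-acetic acid, had the largest change of any member at 1 h. Its level was 33.2, 42.6 and 39.1 CPM in agb1 with NAE against 12.1, 14.3 and 10.0 CPM in agb1 with DMSO. In WT it was 41.2, 37.1 and 33.5 CPM with NAE against 7.72, 7.15 and 10.8 CPM with DMSO. Every NAE library was above every DMSO library of its genotype, and the changes were 1.67 (SE 0.162, adjusted p = 1.44e-05) in agb1 and 2.13 (SE 0.169, adjusted p = 2.02e-06) in WT by edgeR. GH3.5 (AT4G27260), which acts on both auxin and salicylic acid, stood at 19.8, 23.2 and 21.5 CPM in agb1 with NAE against 10.1, 11.7 and 12.6 CPM with DMSO, and at 19.2, 20.7 and 21.7 CPM in WT with NAE against 6.65, 6.82 and 9.98 CPM with DMSO. Its NAE and DMSO libraries did not overlap in either genotype, with changes of 0.93 (SE 0.135) in agb1 and 1.41 (SE 0.14) in WT. GH3.3 (AT2G23170), another auxin-conjugating enzyme, measured 10.3, 10.4 and 14.2 CPM in agb1 with NAE against 3.74, 4.78 and 4.87 CPM with DMSO, and 12, 10.9 and 10.6 CPM in WT with NAE against 3.86, 6.72 and 3.98 CPM with DMSO. Again the libraries separated completely, and the log2 change was 1.42 (SE 0.192) in agb1 and 1.28 (SE 0.195) in WT.

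GH3.6, GH3.17 and DFL2 were called at 1 h in WT and not in agb1, which is not in itself a difference between the genotypes. GH3.6 (AT5G54510), the auxin-conjugating enzyme first found in the dwarf in light mutant dfl1, had 32.3, 32.1 and 27.3 CPM in agb1 with NAE against 25.2, 26.7 and 32.1 CPM with DMSO, which overlapped. In WT the values were 57.3, 56.0 and 55.7 CPM with NAE against 31.0, 34.6 and 39.3 CPM with DMSO, a log2 change of 0.72 (SE 0.102). GH3.17 (AT1G28130), which joins auxin to glutamate, averaged 28.2 ± 3.56 CPM in agb1 with NAE and 23.8 ± 1.68 CPM with DMSO, and 43.4 ± 4.54 CPM in WT with NAE and 28.2 ± 5.47 CPM with DMSO (SD, n = 3 each). DFL2 (AT4G03400), linked to hypocotyl length in the light, averaged 16.5 ± 0.627 CPM in agb1 with NAE and 14.7 ± 1.44 CPM with DMSO, and 23.0 ± 0.62 CPM in WT with NAE and 15 ± 2.64 CPM with DMSO. Its NAE libraries all lay above its DMSO libraries in agb1 as well as in WT. The difference between the genotypes' effects, agb1 minus WT, was -0.57 (SE 0.145) for GH3.6, -0.39 (SE 0.195) for GH3.17 and -0.48 (SE 0.159) for DFL2, and none of the 3 was called, with adjusted p of 0.334, 0.569 and 0.498 by edgeR. In that test GH3.5, called in both genotypes, had an unadjusted p under 0.05, as did GH3.6 and DFL2, and GH3.17 did not. Set directly against WT under NAE, agb1 was lower for GH3.6 by -0.89 (SE 0.102), for GH3.17 by -0.62 (SE 0.137) and for DFL2 by -0.49 (SE 0.111), and all 3 were called.

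**Figure D1:**
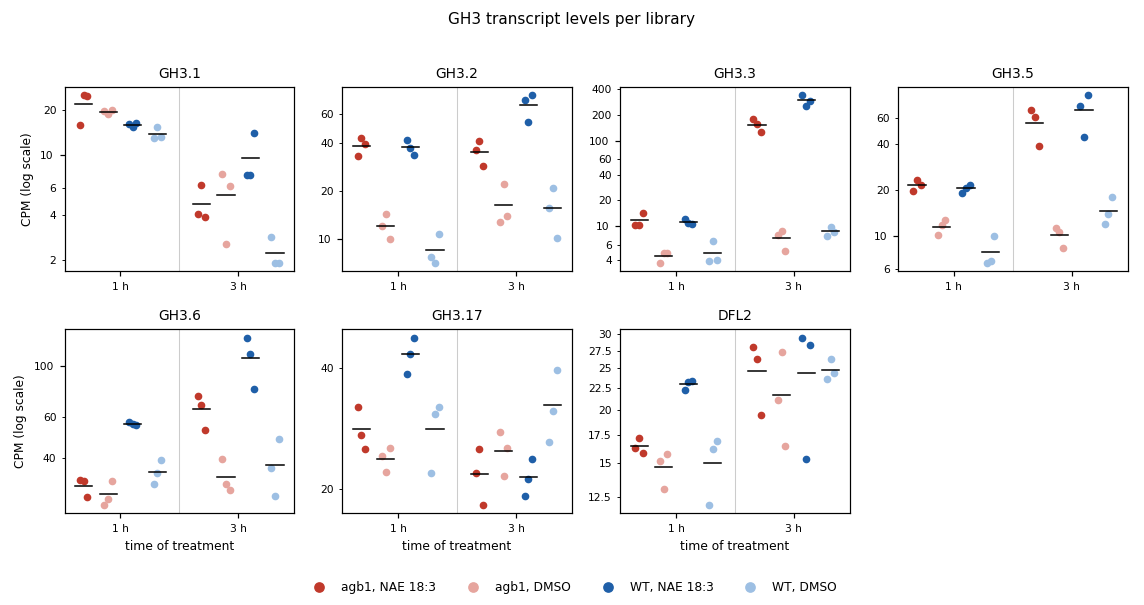
Level of each detected GH3 gene in every library (points, CPM on a log axis) with the group mean (bar), in the order agb1 with NAE, agb1 with DMSO, WT with NAE and WT with DMSO at 1 h and at 3 h. GH3.3 reached 125 to 179 CPM in agb1 and 253 to 340 CPM in WT with NAE at 3 h, while GH3.6 and GH3.17 at 1 h overlapped between treatments in agb1 and separated in WT.

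Among the Aux/IAA genes at 1 h, IAA2 (AT3G23030) had the clearest rise. This early auxin-induced repressor gene had 78.3, 75.3 and 87.2 CPM in agb1 with NAE against 42.2, 40.8 and 44.7 CPM with DMSO. In WT it had 81.4, 90.0 and 86.4 CPM with NAE against 41.1, 42.4 and 42.7 CPM with DMSO. All NAE libraries were above all DMSO libraries and the genotypes overlapped within each treatment, with changes of 0.93 (SE 0.0686) in agb1 and 1.06 (SE 0.0692) in WT. IAA30 (AT3G62100), one of the few family members without the canonical degron, stood at 1.97, 2.61 and 3.36 CPM in agb1 with NAE against 1.31, 1.17 and 1.20 CPM with DMSO, and at 1.87, 1.59 and 2.49 CPM in WT with NAE against 1.16, 1.18 and 1.02 CPM with DMSO. Its libraries did not overlap in either genotype, and the WT call was lost without replicate 3 of WT with NAE (adjusted p = 0.066 by edgeR). IAA1 and IAA16 rose less, by 0.43 (SE 0.112) and 0.41 (SE 0.0876) in agb1 and by 0.42 (SE 0.113) and 0.31 (SE 0.0877) in WT. These smaller calls depended on single libraries: that of IAA1 was lost in agb1 without DMSO replicate 1 or 2 or NAE replicate 3 (adjusted p up to 0.0889) and in WT without DMSO replicate 3 or NAE replicate 2 (up to 0.0819), and that of IAA16 in WT without DMSO replicate 2 or NAE replicate 1 or 2 (up to 0.0948). In the other direction, IAA28 (AT5G25890), whose stabilised form blocks lateral root formation, averaged 20.5 ± 1.56 CPM in agb1 with NAE and 35.5 ± 2.21 CPM with DMSO. It averaged 20.4 ± 1.63 CPM in WT with NAE and 35.9 ± 3.58 CPM with DMSO (SD, n = 3 each). The changes were -0.77 (SE 0.0911) in agb1 and -0.78 (SE 0.0918) in WT, the largest fall of any member at 1 h. IAA4 and IAA27 fell by 0.36 and 0.39 on the log2 scale in WT, and measured -0.20 and -0.19 in agb1, where neither was called.

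At 3 h both families were wider in range. Of 31 tested members, 20 were called in agb1 (64.5%), where 50.5% of all loci were (24.5% higher and 26% lower), and 23 in WT (74.2%), where 58.5% of all loci were (29.4% higher and 29.1% lower). The GH3 genes leaned upward: 4 of 7 rose and none fell in agb1, with a median of 0.96, and 5 rose and 1 fell in WT, with a median of 2.1. The Aux/IAA genes divided almost evenly, with 9 risers and 7 fallers of 24 in agb1 (median 0.02) and 10 risers and 7 fallers in WT (median -0.07), against medians of -0.03 in agb1 and 0.00 in WT over all loci. IAA1, IAA2, IAA5, IAA10, IAA16, IAA18, IAA19, IAA26 and IAA30 rose in both genotypes. IAA3, IAA4, IAA11, IAA12, IAA14, IAA17 and IAA27 fell in both. No member rose in one genotype and fell in the other, at either time. Shared and opposite calls were not counted over all loci.

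**Figure D2:**
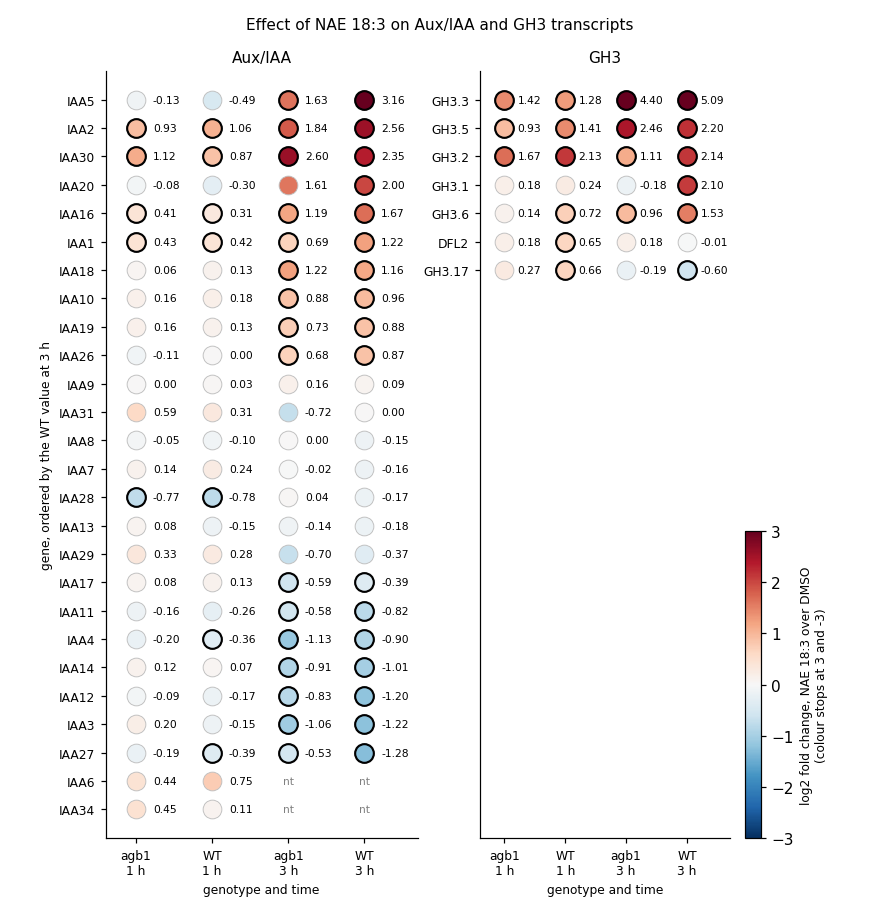
Log2 fold change of NAE 18:3 over DMSO (colour and printed value) for every Aux/IAA and GH3 gene tested at 1 h or 3 h, in agb1 and WT, with a thick black outline where the gene was called and nt where it was not tested. The Aux/IAA column at 3 h runs between 2.60 (IAA30) and -1.13 (IAA4) in agb1 and between 3.16 (IAA5) and -1.28 (IAA27) in WT.

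GH3.3 dominated the GH3 response at 3 h. It had 179, 154 and 125 CPM in agb1 with NAE against 7.95, 8.69 and 5.06 CPM with DMSO. WT libraries had 340, 253 and 293 CPM with NAE against 7.54, 9.82 and 8.60 CPM with DMSO. The treated libraries of both genotypes were far above all DMSO libraries, and within the treated ones every agb1 library was below every WT library. The rise was 21.1-fold in agb1 (log2 4.40, SE 0.215, adjusted p = 4.48e-09) and 34.2-fold in WT (log2 5.09, SE 0.223, adjusted p = 1.3e-09, both by edgeR). Per kilobase of exon, GH3.3 moved to the top of its family, at 139 CPM per kb in WT with NAE against 4.09 CPM per kb in WT with DMSO, where GH3.6 led with 16.1 CPM per kb.

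GH3.5 rose to 67.2, 60.5 and 38.9 CPM in agb1 with NAE against 11.3, 10.6 and 8.29 CPM with DMSO, and to 71.8, 44.6 and 84.5 CPM in WT with NAE against 11.9, 13.8 and 18.0 CPM with DMSO. Its change was 2.46 (SE 0.256) in agb1 and 2.20 (SE 0.257) in WT. The difference of 0.26 (SE 0.349) was not called. GH3.2 had 35.9, 40.9 and 28.6 CPM in agb1 with NAE against 12.7, 22.1 and 14.0 CPM with DMSO, and 73.5, 53.7 and 79.0 CPM in WT with NAE against 15.7, 20.9 and 10.2 CPM with DMSO. NAE and DMSO libraries separated in each genotype, and the changes were 1.11 (SE 0.259) in agb1 and 2.14 (SE 0.27) in WT. GH3.6 had 74.1, 67.8 and 53.0 CPM in agb1 with NAE against 39.9, 30.9 and 29.2 CPM with DMSO, and 132, 112 and 79.2 CPM in WT with NAE against 36.2, 27.6 and 48.4 CPM with DMSO. Unlike at 1 h, GH3.6 was called in agb1 too, at 0.96 (SE 0.222), beside 1.53 (SE 0.226) in WT. GH3.17 went the other way and fell in WT by 0.60 (SE 0.164), while in agb1 it measured -0.19 (SE 0.161) and was not called, and DFL2 was called in neither, at 0.18 (SE 0.225) in agb1 and -0.01 (SE 0.23) in WT. GH3.4 had 0 counts in all 24 libraries, where 3 counts would have been between 0.0438 and 0.191 CPM.

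GH3.1 (AT2G14960), an auxin-linked member of low level at 3 h, was the single gene of the 35 whose response was called as different between genotypes at that time, where 2.97% of all loci were (1.32% higher and 1.65% lower). Its level was 4.07, 6.36 and 3.87 CPM in agb1 with NAE against 7.45, 2.56 and 6.22 CPM with DMSO. In WT it was 7.40, 7.33 and 14.1 CPM with NAE against 2.87, 1.93 and 1.93 CPM with DMSO. The WT libraries separated by treatment and the agb1 libraries overlapped, with agb1 and DMSO replicate 2 lying among the WT DMSO libraries. The change was -0.18 (SE 0.368) in agb1 and 2.1 (SE 0.402, adjusted p = 0.000542) in WT, and the difference was -2.28 (SE 0.544, adjusted p = 0.0413, edgeR). Under DMSO alone, GH3.1 was also higher in agb1 than in WT, by 1.26 (SE 0.395, adjusted p = 0.0411), although the libraries overlapped. The call of the difference was close to the threshold: it was lost with no filter on low counts (adjusted p = 0.0536), with the replicate number as a block (adjusted p = 0.0704), and on leaving out any of the 12 libraries apart from agb1 with DMSO replicate 2, with adjusted p between 0.0545 without WT with NAE replicate 1 and 0.139 without WT with DMSO replicate 2. Without agb1 with DMSO replicate 2 the difference was -2.58 (adjusted p = 0.00437), and DESeq2 gave -2.27 (adjusted p = 0.0014).

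IAA2 and IAA16 carried the highest levels among the Aux/IAA risers at 3 h. IAA2 had 163, 144 and 161 CPM in agb1 with NAE against 36.7, 44.7 and 48.9 CPM with DMSO. In WT it had 211, 249 and 217 CPM with NAE against 45.9, 33.3 and 36.1 CPM with DMSO. All agb1 libraries with NAE were below all WT libraries with NAE, and the change was 1.84 (SE 0.139) in agb1 and 2.56 (SE 0.143) in WT. IAA16 (AT3G04730), whose stabilised form dampens auxin and abscisic acid responses, had 355, 370 and 396 CPM in agb1 with NAE against 174, 114 and 204 CPM with DMSO, and 384, 363 and 396 CPM in WT with NAE against 118, 106 and 136 CPM with DMSO. The treated libraries of the 2 genotypes covered the same range, and the changes were 1.19 (SE 0.171) in agb1 and 1.67 (SE 0.173) in WT. Per kilobase of exon, IAA16 and IAA2 led the family in WT with NAE at 188 and 166 CPM per kb, whereas IAA9 (AT5G65670), an abundant member that was not called, led in WT with DMSO at 127 CPM per kb and stood at 135 CPM per kb with NAE.

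IAA18 and IAA1 rose from lower levels. IAA18 (AT1G51950), which acts in embryonic root and lateral root formation, had 35.7, 33.7 and 36.7 CPM in agb1 with NAE against 14.0, 13 and 18.6 CPM with DMSO, and 43.9, 36.4 and 32 CPM in WT with NAE against 15.8, 15 and 19.5 CPM with DMSO. Its changes were nearly equal, 1.22 (SE 0.153) in agb1 and 1.16 (SE 0.156) in WT. IAA1 (AT4G14560), an early auxin-induced gene, had 6.36, 6.42 and 6.24 CPM in agb1 with NAE against 3.52, 4.15 and 4.12 CPM with DMSO, and 6.48, 7.71 and 6.42 CPM in WT with NAE against 3.46, 3.16 and 2.18 CPM with DMSO. The libraries separated by treatment in both genotypes, with changes of 0.69 (SE 0.177) in agb1 and 1.22 (SE 0.189) in WT.

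Further Aux/IAA genes with large changes at 3 h, IAA5, IAA30 and IAA20, had very low levels. IAA5 (AT1G15580), an early auxin-induced gene, had 0.564, 0.372 and 0.195 CPM in agb1 with NAE against 0.141, 0.0914 and 0.127 CPM with DMSO. In WT it had 1.08, 0.510 and 1.72 CPM with NAE against 0.157, 0.123 and 0.0839 CPM with DMSO. Treated libraries were above DMSO libraries in each genotype, with changes of 1.63 (SE 0.57) in agb1 and 3.16 (SE 0.604) in WT. In agb1 the IAA5 call was lost without agb1 with NAE replicate 1 (1.23, adjusted p = 0.138) or replicate 2, and without any agb1 DMSO library (adjusted p between 0.0506 and 0.0918). IAA30 stood at 2.85, 3.35 and 2.26 CPM in agb1 with NAE against 0.703, 0.494 and 0.191 CPM with DMSO, and at 3.96, 2.74 and 4.28 CPM in WT with NAE against 0.510, 1.27 and 0.378 CPM with DMSO. The changes of IAA30, 2.60 (SE 0.447) in agb1 and 2.35 (SE 0.459) in WT, kept their calls without any single library, although the WT value was 2.99 without WT with DMSO replicate 2. IAA20 (AT2G46990), its close relative that also lacks the canonical degron, had 0.595, 0.258 and 0.279 CPM in agb1 with NAE against 0.164, 0.0366 and 0.170 CPM with DMSO, and 0.668, 0.574 and 1.35 CPM in WT with NAE against 0.393, 0.0822 and 0.168 CPM with DMSO. It rose in WT by 2.00 (SE 0.655, adjusted p = 0.0175) and missed the threshold in agb1 at 1.61 (SE 0.661, adjusted p = 0.0572, edgeR). The WT call was lost without WT with DMSO replicate 2 (1.58, adjusted p = 0.0824), without WT with DMSO replicate 3 (1.85, adjusted p = 0.0545) and without WT with NAE replicate 3 (1.51, adjusted p = 0.095), and the value was 2.73 without WT with DMSO replicate 1, where it stayed called. IAA31, the third relative of this subgroup, was not called, at -0.72 (SE 0.411) in agb1 and 0.00 (SE 0.474) in WT.

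**Figure D3:**
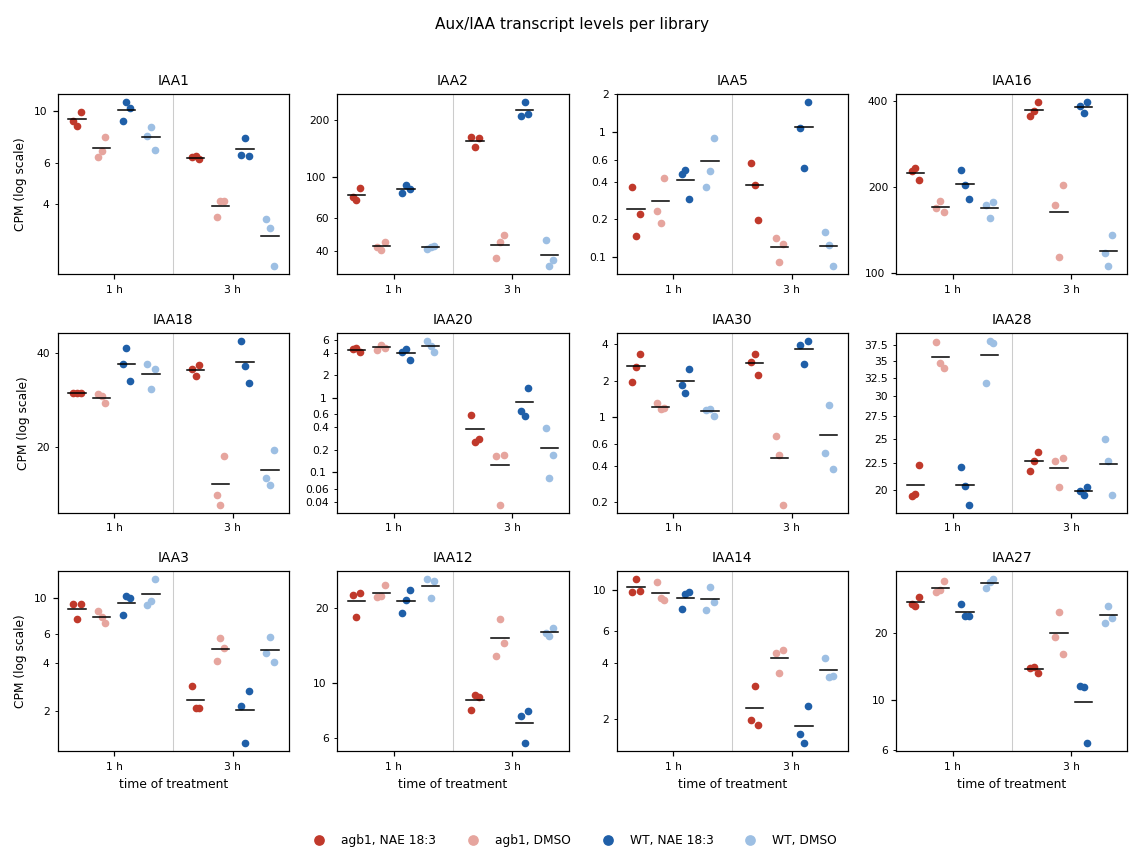
Level of 12 Aux/IAA genes in every library (points, CPM on a log axis) with the group mean (bar), in the order agb1 with NAE, agb1 with DMSO, WT with NAE and WT with DMSO at 1 h and at 3 h. IAA28 separates by treatment at 1 h (19.5 to 22.3 CPM in agb1 and 18.8 to 22.1 CPM in WT with NAE), and the bottom row with IAA3, IAA12, IAA14 and IAA27 lies lower with NAE at 3 h.

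Among the fallers at 3 h, several are known from mutants with stabilised repressors. IAA12 (AT1G04550), the BODENLOS repressor of embryonic root formation, had 7.77, 8.94 and 8.81 CPM in agb1 with NAE against 12.8, 18.0 and 14.5 CPM with DMSO. In WT it had 7.35, 5.74 and 7.68 CPM with NAE against 15.9, 15.4 and 16.6 CPM with DMSO. The groups did not overlap within a genotype, and the changes were -0.83 (SE 0.146) in agb1 and -1.20 (SE 0.153) in WT. IAA3 (AT1G04240), the SHY2 repressor that acts in root meristem size and light responses, had 2.85, 2.09 and 2.09 CPM in agb1 with NAE against 4.10, 5.67 and 4.89 CPM with DMSO, and 2.16, 1.27 and 2.65 CPM in WT with NAE against 4.59, 5.79 and 4.03 CPM with DMSO. IAA3 changed by -1.06 (SE 0.248) in agb1 and by -1.22 (SE 0.266) in WT. IAA27 (AT4G29080), also named PAP2, had 14.0, 14.1 and 13.3 CPM in agb1 with NAE against 19.2, 24.7 and 16.0 CPM with DMSO, and 11.6, 11.5 and 6.47 CPM in WT with NAE against 22.1, 26.3 and 23.3 CPM with DMSO. Its change of -0.53 (SE 0.195) in agb1 lost its call on leaving out agb1 with NAE replicate 1, 2 or 3 or agb1 with DMSO replicate 1 or 2 (adjusted p up to 0.158), whereas the WT change of -1.28 (SE 0.206) kept it. IAA4 fell by 1.13 in agb1 and by 0.90 in WT on the log2 scale, IAA14 (AT4G14550), the SOLITARY-ROOT repressor of lateral root initiation, by 0.91 and 1.01, IAA11 by 0.58 and 0.82, and IAA17, the AXR3 repressor, by 0.59 and 0.39, in the same order of genotypes.

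The remaining Aux/IAA genes moved little or were hardly detected. IAA10, IAA19 and IAA26 rose by between 0.68 and 0.96 in the 2 genotypes at 3 h. The calls of IAA10 were lost in agb1 without DMSO replicate 2 or NAE replicate 3 and in WT without replicate 1 of either treatment (adjusted p up to 0.0939), and those of IAA19 in agb1 without any library but DMSO replicate 3 and in WT without replicate 3 of either treatment (up to 0.121). The IAA19 call was also lost in agb1 with the replicate block (adjusted p = 0.0561) and in WT with the compared groups alone (adjusted p = 0.0592). Of the fallers, IAA11 lost its agb1 call without DMSO replicate 2 (adjusted p = 0.0621) and IAA17 its WT call without NAE replicate 1 or 2 (up to 0.0724). IAA7, IAA8, IAA9, IAA13, IAA28, IAA29 and IAA31 were called in neither genotype at 3 h, and IAA28, the clearest faller at 1 h, measured 0.04 (SE 0.104) in agb1 and -0.17 (SE 0.107) in WT. Its DMSO level was also lower at 3 h, at 22 ± 1.47 CPM in agb1 and 22.4 ± 2.62 CPM in WT. IAA33, a member without the degron, had at most 19 counts in any library and was not tested at either time, and IAA6 and IAA34 had at most 6 and 15 counts at 3 h and were tested at 1 h only.

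The step between 1 h and 3 h was tested directly in a fit of all 24 libraries. The NAE effect differed between the times for 16 of 33 tested members in agb1 (48.5%, with 34.5% of all loci) and for 23 in WT (69.7%, with 48% of all loci). The step was upward for 11 members and downward for 5 in agb1, with 17% and 17.5% of all loci, and upward for 14 and downward for 9 in WT, with 25.2% and 22.8%. GH3.3 had the largest such step in both genotypes, 3.00 (SE 0.293) in agb1 and 3.83 (SE 0.304) in WT. GH3.2 showed none that was called, at -0.55 (SE 0.33) in agb1 and 0.03 (SE 0.341) in WT. In WT, GH3.17 turned with time: it rose by 0.66 (SE 0.138) at 1 h and fell by 0.60 (SE 0.164) at 3 h, and the step of -1.22 (SE 0.225) was called. In agb1 the GH3.17 step was -0.44 (SE 0.221) and was not called. Steps were not tested for a difference between the genotypes.

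Set against WT directly, agb1 differed for few members at 1 h. Under NAE, 4 of 33 members were lower in agb1 and none higher, namely GH3.6, GH3.17, DFL2 and IAA18, a share of 12.1% beside 8.97% of all loci (4.08% higher and 4.89% lower). Under DMSO at 1 h, GH3.1 and GH3.5 were higher in agb1 and IAA4 was lower, a share of 9.09% beside 11.4% of all loci (5.63% higher and 5.75% lower). The GH3.5 libraries of agb1 with DMSO, at 10.1 to 12.6 CPM, all lay above those of WT with DMSO, at 6.65 to 9.98 CPM. Of these 7 genotype calls, those of GH3.6 and IAA4 were kept without any single library, and the other 5 were each lost without some. That of IAA18 was lost without WT with NAE replicate 1 or 2 or any agb1 library with NAE (adjusted p up to 0.161). That of GH3.17 was lost without WT with NAE replicate 3 or agb1 with NAE replicate 2 or 3 (up to 0.0655), and that of DFL2 without WT with NAE replicate 2 or agb1 with NAE replicate 3 (up to 0.0567). That of GH3.1 was lost without any DMSO library but WT replicate 2 (up to 0.131), and that of GH3.5 without replicate 1 or 2 of WT or replicate 2 or 3 of agb1 with DMSO (up to 0.124). No member had a called difference of the NAE effect at 1 h, when 0.0753% of all loci did, all of them lower in agb1. In that test 3 members, GH3.5, GH3.6 and DFL2, of 33 had an unadjusted p under 0.05, as 1937 of 21255 loci did, and DESeq2 also called 0. The estimates ran between -0.57 and 0.35 with a median SE of 0.169.

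At 3 h, 7 of 31 members differed between agb1 and WT under NAE, a share of 22.6% beside 22.9% of all loci (9.24% higher and 13.7% lower). Lower in agb1 were GH3.2 by -0.98 (SE 0.257), GH3.3 by -0.96 (SE 0.185), GH3.6 by -0.74 (SE 0.22), IAA2 by -0.54 (SE 0.134) and IAA5 by -1.58 (SE 0.495), and higher were IAA11 by 0.60 (SE 0.187) and IAA13 by 0.46 (SE 0.102). The agb1 and WT libraries of IAA5 overlapped, and those of the other members called here did not. These members were picked by a test on the same libraries, and overlap was not counted over all loci. The calls of GH3.3 and IAA13 were kept without any single library, whereas those of the other 5 were each lost without some library of agb1 or WT with NAE (adjusted p up to 0.072 for GH3.2, 0.121 for GH3.6, 0.0569 for IAA2, 0.154 for IAA5 and 0.1 for IAA11). The IAA5 call was lost in 9 of 20 alternatives, also with no low-count filter, with the replicate block, with the compared groups alone and without WT with DMSO replicate 1 or 2 (adjusted p between 0.0501 and 0.0546). Under DMSO at 3 h, only IAA13 and GH3.1 were called, both higher in agb1, a share of 6.45% beside 19% of all loci (7.84% higher and 11.1% lower). The GH3.1 call there was lost in 10 of 21 alternatives, and that of IAA13 in 3 of 21 (adjusted p up to 0.0604). Over the 7 tested GH3 genes, the difference of the NAE effect was below 0 for 4, at -2.28 for GH3.1, -1.03 (SE 0.367) for GH3.2, -0.70 (SE 0.274) for GH3.3 and -0.57 (SE 0.312) for GH3.6, and above 0 for GH3.5, GH3.17 and DFL2, and only that of GH3.1 was called. Among the 24 tested Aux/IAA genes none was called and 2 had an unadjusted p under 0.05, as 3969 of 20672 loci did: IAA2, at -0.71 (SE 0.191, adjusted p = 0.0618), and IAA27, at 0.75 (SE 0.282, adjusted p = 0.165). IAA2 was called by DESeq2 and without WT with DMSO replicate 1, and IAA16 and IAA27 were called without agb1 with DMSO replicate 2. Shoot markers differed between the genotypes at 3 h as well: their sum was 12700 to 14100 CPM in agb1 and 18500 to 23000 CPM in WT with NAE, and 10600 to 12000 CPM in agb1 and 17300 to 22000 CPM in WT with DMSO. By marker, 2 of 4 were called lower in agb1 with NAE, where 1 lay above 0, and 4 of 4 with DMSO. Root markers summed to 74.3 to 90.5 CPM in agb1 and 93.1 to 128 CPM in WT with NAE. With DMSO the root sums overlapped, at 89.2 to 124 CPM in agb1 and 115 to 130 CPM in WT. With either treatment 0 of 8 root markers were called. The part of shoot and root markers in the genotype values was not tested.

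**Figure D4:**
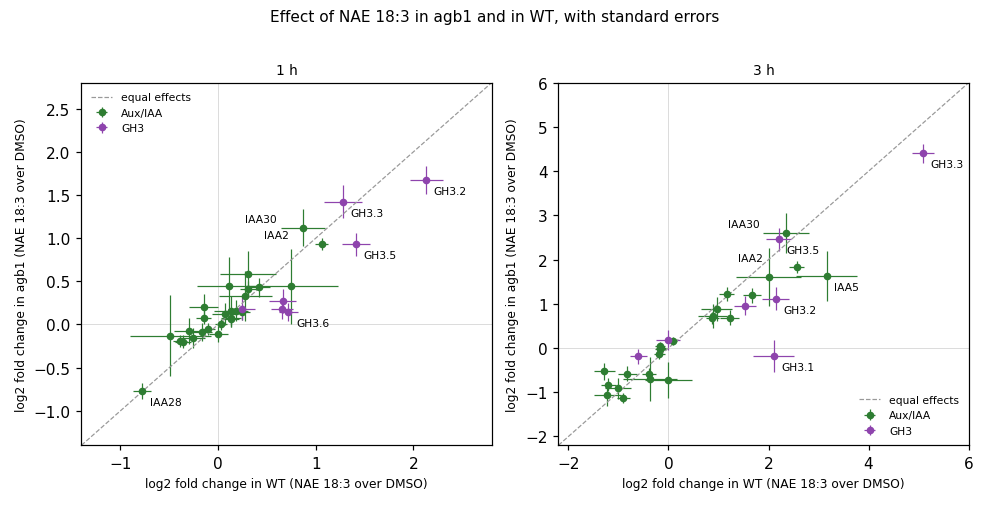
Log2 fold change of NAE 18:3 over DMSO in agb1 (vertical) against that in WT (horizontal) at 1 h and 3 h, with standard errors as bars, for Aux/IAA genes (green) and GH3 genes (purple), and a dashed line where both effects are equal. At 3 h GH3.1 lies far below the line, at -0.18 in agb1 and 2.1 in WT, and is the only gene whose distance from the line was called.

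Neighbouring genes and gene copies were checked as possible sources of shared reads. No stretch of 75 bases from any exon of the 35 members occurred elsewhere in the genome sequence. IAA3, IAA5, IAA9, IAA10, IAA11, IAA13, IAA27 and DFL2 overlap a locus on the opposite strand, and because the strand setting of the counting is not given in the sources used here, reads of the partners cannot be told apart. Each of the 3 pairs IAA3 with IAA17, IAA2 with IAA7 and IAA14 with IAA1 lies head to head with no coding gene in between, 6388, 12510 and 10732 bases apart. At 3 h, IAA3 and IAA17 both fell, IAA2 rose beside the uncalled IAA7, and IAA1 rose beside the falling IAA14. Exon length was a further difference between libraries. At 1 h the rank correlation of a library's deviation with exon length ran between -0.20 and 0.16 in agb1 and -0.14 and 0.19 in WT with NAE, and between -0.02 and 0.29 in agb1 and -0.39 and -0.07 in WT with DMSO, where the genotypes did not overlap. With an offset that removes this trend, the higher GH3.1 level of agb1 with DMSO at 1 h was no longer called (0.47, edgeR adjusted p = 0.0581). At 3 h the correlation ran between -0.22 and 0.01 under NAE and between 0.06 and 0.14 under DMSO. With the same offset, 21 members were called in agb1 and 23 in WT at 3 h, beside 10429 and 12188 of 20672 loci.

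The promoter words can be set beside the response. Of the 15 members that rose in WT at 3 h, 8 windows held TGTCTC (IAA1, IAA5, IAA19, IAA20, GH3.2, GH3.3 and GH3.5 among them) and 3 held TGTCGG (IAA1, IAA5 and IAA16). Of the 8 that fell, 0 held TGTCTC and 2 held TGTCGG (IAA12 and IAA27). Over all protein-coding promoters 10.9% held TGTCTC, and the share among loci called higher or lower was not counted. A link between word and response was not tested. Among the 8 tested but uncalled members, IAA8 held TGTCTC and IAA13 held TGTCGG, and among the 4 untested members IAA6 and IAA34 held TGTCTC. IAA2, IAA10, IAA18, IAA26, GH3.1 and GH3.6 rose with neither word in the window, as the printed IAA2 window shows.

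Other genes of the auxin pathway were more often called lower than higher at 3 h, when 24.5% of all loci were called higher and 26% lower in agb1, and 29.4% higher and 29.1% lower in WT. Of 6 TIR1/AFB auxin receptor genes, 3 fell and none rose in agb1, and 3 fell and 1 rose in WT. Auxin response factors, the partners of the Aux/IAA proteins, fell for 6 of 15 and rose for 2 in agb1, and fell for 7 and rose for 1 in WT. ARF8 changed by -1.39 (SE 0.115) in agb1 and -1.79 (SE 0.119) in WT, and ARF4 by -1.25 (SE 0.133) and -1.87 (SE 0.139) in the same order. Auxin synthesis genes fell for 7 of 12 and rose for 2 in agb1, and fell for 8 and rose for 1 in WT, and TAA1, an aminotransferase of the main route, changed by -2.30 (SE 0.139) in agb1 and -2.20 (SE 0.145) in WT. Transport genes fell for 8 of 15 and rose for 2 in agb1, and fell for 11 and rose for 2 in WT, with the efflux carrier PIN7 at -2.09 (SE 0.16) in agb1 and -2.16 (SE 0.162) in WT.

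Other auxin-induced families gave mixed counts at 3 h. SAUR genes, a class of early auxin genes that act in cell expansion, fell for 9 of 11 tested and rose for 1 in each genotype. Their median was -2.73 in agb1. In WT, where 7 of the 11 had 0 counts with NAE, the fitted median was -5.88, which depends on the prior count, and with those 7 set to a floor of 3 counts over the group it was -2.56, a limit beyond which the fall could lie, so the medians of the genotypes cannot be ranked. The riser, SAUR9, averaged 9.20 ± 1.45 CPM in agb1 with NAE and 0.937 ± 0.534 CPM with DMSO, and 12.5 ± 0.571 CPM in WT with NAE and 0.475 ± 0.0573 CPM with DMSO (SD, n = 3 each). SAUR14 had 54 counts over the 3 agb1 libraries with NAE against 510 with DMSO, and 3 counts in WT with NAE against 227 with DMSO. Every WT library at 3 h was shallower than every agb1 library. Raw counts, and the 7 genes at 0 in WT, therefore cannot be compared directly between the genotypes. The ratio of NAE to DMSO was 0.149 (95% exact interval 0.11 to 0.197) in agb1 and 0.0172 (0.00352 to 0.0509) in WT, intervals that cover counting error only. Of 7 tested auxin-induced transcription factors outside the Aux/IAA family, 2 rose in agb1 and 4 in WT and none fell. HAT2, a homeobox factor induced by auxin, measured -0.26 (SE 0.139) in agb1 and 0.73 (SE 0.144) in WT, a called difference of -0.99 (SE 0.2, adjusted p = 0.0214 by edgeR). It was the only 1 of these 7 so called, beside 2.97% of all loci. A difference of the NAE effect at 3 h was also called for 2 of 12 synthesis genes, 1 of 15 transport genes and 1 of 11 SAUR genes. None was called among the receptors, the response factors or the other genes of auxin inactivation and release. The other genes of auxin inactivation and release rose for 4 and fell for 1 of 9 in agb1, and rose for 4 and fell for 3 in WT. IAR3, which frees auxin from amino acid conjugates and so works opposite to GH3 enzymes, rose by 2.61 (SE 0.15) in agb1 and 3.22 (SE 0.155) in WT. The GH3-family enzymes outside auxin, JAR1 for jasmonate and PBS3 for salicylate, both fell, by 0.56 and 1.92 on the log2 scale in agb1 and by 0.36 and 1.89 in WT.

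**Figure D5:**
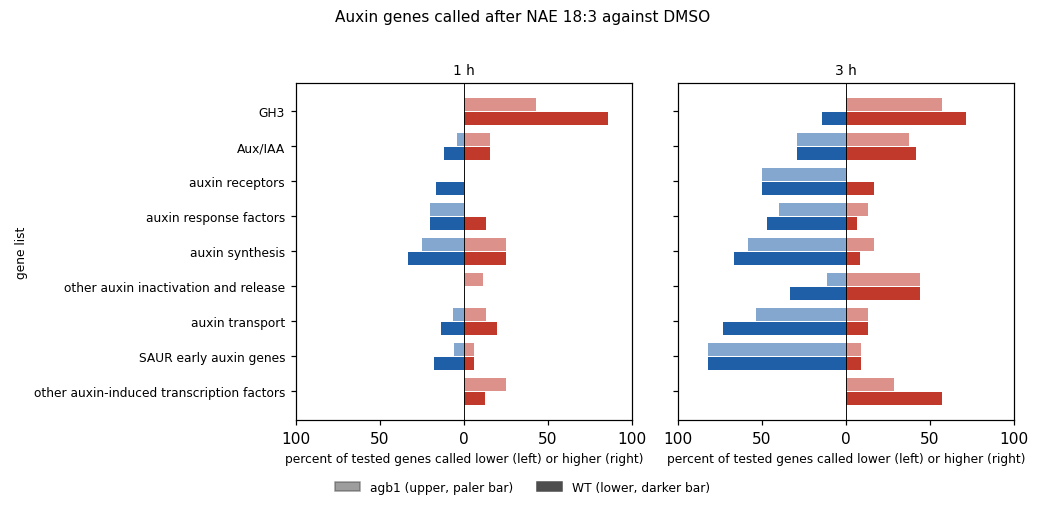
Percent of tested genes called higher (right) or lower (left) with NAE 18:3 than with DMSO in each auxin list, in agb1 (upper, paler bars) and WT (lower, darker bars) at 1 h and 3 h. The GH3 list is the one with the largest share called higher at 3 h (57.1% in agb1 and 71.4% in WT, 4 and 5 of 7 genes), and 9 of 11 SAUR genes were called lower in each genotype.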

How the data were processed

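Poly(A) RNA was sequenced as paired reads from stranded libraries, per the labels' protocols. The deposited raw tables, 1 for each time, give read counts by locus made by the authors, and the submitters' processing notes name STAR as the tool and TAIR10 as the build. The counting tool and its strand setting are not given in the sources used here. The other deposited tables hold a normalized signal, which equalled the count divided by a size factor per library (DESeq2 is named in the submitters' processing notes). They served only to check the columns.

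All tests used the counts. The low-count filter of edgeR 4.0.16 (filterByExpr with groups, count threshold 10 and total threshold 15) kept 21255 loci for 1 h, 20672 for 3 h and 21700 over the 24 libraries together. After TMM scaling, a robust quasi-likelihood F test (run under R 4.3.3) was made on the 12 libraries of a time for treatment and genotype effects and their difference, and on all 24 for differences between times. The p-values were adjusted by Benjamini-Hochberg over all tested loci. The SE of a log2 change is its size divided by the square root of F. Levels use TMM scaling over all 24 libraries. The fits were also run on simulated counts in which few loci differed between groups, unlike the data at 3 h. That run does not test the scaling where many loci change.

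Names, exon lengths and promoter windows came from RefSeq TAIR10.1, in which 32548 of 32833 loci were found. The counts rest on TAIR10, so printed coordinates are those of the RefSeq windows only. Of 21 members that changed at least 2-fold and were called under NAE, or were called between genotypes, the 15 with the largest changes under NAE are given by library, and other members as group means, changes or counts. From each other auxin list, genes were drawn from the called pair with the smallest p in WT at each time. The members and lists were chosen with earlier results of these data known. Alternatives were RLE scaling, other low-count filters, DESeq2 1.42.0, a replicate block, an exon-length offset, organelle and ribosomal RNA loci left out, a non-robust fit, a fit of the compared groups alone, and each library left out in turn.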

Additional observations from a re-analysis of the deposited data

Results flagged for a closer look

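Members whose NAE effect differed between groups, by a test of the difference itself, are listed here with the log2 difference. Between genotypes at 3 h, agb1 minus WT, this was GH3.1 at -2.28, a call that 13 of 20 alternatives lost.

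Between times, 3 h minus 1 h, 16 members differed in agb1. The effect was higher at 3 h for the GH3 genes GH3.3 (3.00), GH3.5 (1.55) and GH3.6 (0.84), and for the repressor genes IAA20 (1.71), IAA30 (1.5), IAA18 (1.17), IAA2 (0.93), IAA28 (0.83), IAA26 (0.80), IAA16 (0.79) and IAA10 (0.74). It was lower at 3 h for IAA3 (-1.24), IAA14 (-1.01), IAA4 (-0.91), IAA12 (-0.72) and IAA17 (-0.66). In WT, 23 members differed. The effect was higher at 3 h for GH3.3 (3.83), GH3.1 (1.91), GH3.6 (0.84) and GH3.5 (0.82), and for IAA5 (3.68), IAA20 (2.34), IAA2 (1.52), IAA30 (1.52), IAA16 (1.39), IAA18 (1.05), IAA26 (0.89), IAA1 (0.83), IAA10 (0.82) and IAA28 (0.64). It was lower at 3 h for GH3.17 (-1.22), IAA14 (-1.03), IAA3 (-1.04), IAA12 (-0.99), IAA27 (-0.86), IAA11 (-0.54), IAA4 (-0.51), IAA17 (-0.49) and IAA7 (-0.37). Of 32 alternatives for each of the following calls, in agb1 16 lost that of IAA10, 3 that of IAA30 and 2 each those of IAA20 and GH3.6. In WT 21 lost that of IAA11, 9 that of IAA7, 8 that of GH3.5, 7 that of IAA10, 3 that of IAA17, 2 that of IAA30 and 1 that of GH3.6. The calls of the other listed members were kept in every alternative that gave a value. In WT the step of IAA20 was 3.07 without WT with DMSO replicate 1 at 3 h, and that of IAA30 was 2.2 without WT with DMSO replicate 2 at 3 h. IAA28 fell at 1 h (-0.77 in agb1 and -0.78 in WT) and was not called at 3 h (0.04 in agb1 and -0.17 in WT).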

How the results depend on the processing

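Over 2942 recomputed values of single members, 2758 kept direction and call, 184 kept direction and lost the call (159 of these on leaving out a library), and 0 reversed. Of 120 called member results, 83 were never lost. The counts called under NAE ranged, leaving out each library in turn, between 7 and 9 in agb1 and 11 and 13 in WT at 1 h, and between 15 and 20 in agb1 and 21 and 23 in WT at 3 h. For the step between times they ranged between 14 and 17 in agb1 and 19 and 24 in WT. The genotype counts were less stable. Under NAE at 1 h they ranged between 1 and 5 (2 without WT with NAE replicate 2 or agb1 with NAE replicate 2, and 1 without agb1 with NAE replicate 3), and under DMSO at 1 h between 1, without agb1 with DMSO replicate 2, and 4. At 3 h they ranged between 3 and 9 under NAE (4 without WT with NAE replicate 1 or 3, and 3 without agb1 with NAE replicate 2 or 3) and between 0, without agb1 with DMSO replicate 3, and 3 under DMSO, with 1 without agb1 with DMSO replicate 1, agb1 with NAE replicate 3 or any WT DMSO library. Counts over all loci moved as well: at 1 h they ranged between 1071 and 2039 under NAE and between 851 and 2734 under DMSO. At 3 h the all-loci count under NAE was 3106 without WT with NAE replicate 2, against 4743 in the main fit. Without WT with DMSO replicate 2 the all-loci count at 3 h was 2503 under DMSO, against 3921. In that fit 198 loci had differing effects, against 613. The count of members with differing NAE effects stayed at 0 at 1 h and ranged between 0 and 3 at 3 h. DESeq2 called 6 members under DMSO at 1 h, against 3 by edgeR, and 2 differing effects at 3 h, against 1. It also called more loci, 3220 of 26904 under DMSO at 1 h and 1391 of 25852 differing effects at 3 h. In edgeR these were 2419 of 21255 and 613 of 20672 loci. With no low-count filter, 0 differing effects and 1 genotype difference under DMSO were called at 3 h, and the fit of only the compared groups called 0 genotype differences under DMSO, against 2. Over all loci, no filter gave 597 differing effects and 3612 genotype differences under DMSO, of 25852. The compared groups alone gave 2466 of 20258, against 3921 of 20672 in the main fit. Whether replicate numbers paired the samples was not settled. In 0 of 12 comparisons of groups did every same-numbered pair correlate above 0.1 (range -0.18 to 0.26). Libraries of different numbers were not compared. Between WT and agb1 with DMSO at 3 h the correlation was -0.04, 0.26 and 0.17 for numbers 1, 2 and 3. The replicate block left 0 differing effects and 1 genotype difference under DMSO at 3 h, beside 564 and 3692 of 20672 loci. Of single calls it lost, beside both of GH3.1 at 3 h, the rise of IAA19 in agb1 at 3 h (adjusted p = 0.0561), the lower IAA5 of agb1 with NAE at 3 h (0.0545) and the time steps of IAA10 in agb1 (0.0581) and IAA11 in WT (0.0588), all by edgeR. No other count of calls moved by over 1.5 times under these settings. A fit of only the compared groups was not run for differences of effects, which need all groups. For IAA5 and IAA20, genes of very low level at 3 h, the SE of the NAE effect was 0.57 to 0.661. The WT libraries at 3 h were shallower than the agb1 libraries, and the part of depth in the genotype values of IAA5 and IAA20 was not tested. The cause of lost calls was not tested.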
